A study of Homo sapiens with 4 samples.

Results

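The genes described are 10 genes of the contractile apparatus, MYH7B, ACTA1, ACTA2, ACTC1, ACTG2, MYL9, TAGLN, TPM1, TPM2 and CNN1, in prostate cancer cells that do not normally build muscle fibers. They were chosen by name, and 14 probes on the array were paired with them through RefSeq accessions, of 34127 probes and 19483 named genes in all. MYH7B and ACTA1 were picked because their signals with tetracycline were far above those without it on these same arrays, and the question was whether they were alone in this among contractile genes. All changes with tetracycline in the 10 genes are therefore given as a description, with no test. With tetracycline, MYH7B and ACTA1 were higher by 2-fold or more in both cell lines. Of the other genes measured on all 4 arrays, TPM2 was too. MYL9 and CNN1 also passed 2-fold in both lines, but were well above background on the treated arrays only and so could only be higher. ACTA2 and ACTG2 differed between the lines, and TAGLN changed by less than 2-fold in each line. TPM1 was higher in neither, and ACTC1 was at background throughout.

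Muscle contracts when myosin, a motor protein made of heavy and light chains, pulls on actin filaments. In striated muscle these filaments are packed into sarcomeres and switched on by calcium through troponin and tropomyosin, whereas smooth muscle is switched on by phosphorylation of the myosin light chain and has calponin and transgelin on its actin. The striated and smooth muscle actins are encoded by separate genes whose proteins are nearly identical, and epithelial cells such as those of the prostate gland rely mainly on the non-muscle actins ACTB and ACTG1. Several tropomyosin, light chain and transgelin genes are also active in non-muscle cells.

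MeTA (methyl-CpG targeted transcriptional activation) uses a fusion of the NFκB activation domain with a methyl-CpG binding domain, NFκB (AD)-MBD, to switch on genes with methylated promoters. TR9-MeTA14 and TR15-MeTA5 cells, written TR9_MeTA14 and TR15_MeTA5 here, derive from LNCaP, a human prostate cancer line, by stable introduction of a Tet repressor plasmid and then of a plasmid from which tetracycline releases NFκB (AD)-MBD expression. Total RNA was taken from each line after 4 days with tetracycline (+Tet) or without it (-Tet), and Cy3-labeled cRNA of each of the 4 conditions from cells grown in RPMI1640 with 10% fetal bovine serum was hybridized to 1 Agilent whole human genome array. Control cells carried both plasmids too, and no array of tetracycline-treated cells lacking the fusion was analysed here, so the drug and the fusion cannot be told apart. Whether each line is a single clone is not given in the sources used here. Each condition has 1 array, so changes within a line are unreplicated and carry no p-value, and precision is limited by how few arrays there are.

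Signals are the processed signals of Agilent Feature Extraction, in intensity units after background subtraction, each with the error that this software estimates for it (±), which covers measurement within an array only. Between 20563 and 24217 probes per array were well above background by the flag of the software. For fold changes, each array was scaled to its 75th percentile, which lay between 367 and 777, so that +Tet to -Tet ratios were divided by 1.26 in TR9_MeTA14 and 1.48 in TR15_MeTA5. After scaling, probes measured well above background on each of the 4 arrays had median log2 changes of -0.15 and -0.19. Where the dimmer array did not measure a probe well above background, the change is a lower bound against the lowest signal that array did measure, and is given as "at least". The spread of replicate spots of the same probe would give a log2 ratio an SD of 0.0873. In these RNA extracts, fewer cells with a transcript and less transcript per cell cannot be told apart.

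MYH7B encodes a slow-type myosin heavy chain of striated muscle related to the cardiac heavy chains. Its only probe, A_33_P3407469, read 36.5 ± 4.9 (-Tet) and 15194 ± 1519 (+Tet) for TR9_MeTA14, and 22.4 ± 3.9 (-Tet) and 8772 ± 877 (+Tet) for TR15_MeTA5. Both untreated signals were dim but well above background, and both treated signals were above the 75th percentile of their arrays. After scaling, MYH7B was 331-fold higher in TR9_MeTA14 and 264-fold higher in TR15_MeTA5. Of 12698 genes measured on all 4 arrays, 2 had a larger increase in TR9_MeTA14 and 0 in TR15_MeTA5, when genes whose change is only a bound are left out.

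MYL9 encodes the regulatory light chain of smooth muscle myosin, whose phosphorylation starts contraction. Probe A_23_P210425 was not well above background without tetracycline, at 6.05 in TR9_MeTA14 and 9.84 in TR15_MeTA5. With tetracycline it read 409 ± 41.1 and 78.8 ± 9.5, respectively. The increase was at least 21.1-fold and at least 3.45-fold. The regulatory light chain was thus brighter with tetracycline in each line, with a smaller bound in TR15_MeTA5.

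The 4 muscle actins did not move as a group. ACTA1, the skeletal muscle actin, was read by A_23_P1102, which is spotted 10 times on each array. Its mean signals were 27.8 ± 4.5 and 112 ± 11.7 (-Tet and +Tet) for TR9_MeTA14, and 18.3 ± 4.1 and 721 ± 72.3 for TR15_MeTA5. Both treated arrays were above both untreated ones. The increase was 3.20-fold in TR9_MeTA14 and 26.7-fold in TR15_MeTA5, a log2 difference of 3.06 between the lines.

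ACTA2 and ACTG2 are the actins of vascular and visceral smooth muscle. The ACTA2 probe, A_23_P150053, read 63.0 ± 7.5 (-Tet) and 32.4 ± 4.8 (+Tet) for TR9_MeTA14, and 56.7 ± 6.9 and 386 ± 38.9 for TR15_MeTA5. After scaling it was 2.44-fold lower in TR9_MeTA14 and 4.60-fold higher in TR15_MeTA5. ACTG2, read by A_23_P39955, went from 35.1 ± 5.2 to 23.8 ± 4.2 and from 114 ± 12.0 to 464 ± 46.7. It was 1.85-fold lower in TR9_MeTA14 and 2.76-fold higher in TR15_MeTA5. Both smooth muscle actins therefore had their highest signal in TR15_MeTA5 +Tet and their lowest in TR9_MeTA14 +Tet. The log2 changes differed between the lines by 3.49 for ACTA2 and 2.36 for ACTG2, and with 1 array per condition this could not be tested.

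ACTC1, the cardiac actin, was not well above background on any of the 4 arrays, where A_33_P3236382 read between 4.24 and 11.8, and no fold change is given. Sequences of the probes were not used here, so cross-hybridization between near-identical actins was not tested. The non-muscle actin ACTB, by its brighter probe, had log2 changes of -0.47 and -0.22 in TR9_MeTA14 and TR15_MeTA5, which turned to 0.32 and 0.24 with quantile normalization and to 0.36 and 0.23 when normexp preceded it, and in TR15_MeTA5 to 0.21 with spike-in scaling. ACTG1 had log2 changes of 1.09 and 0.32, positive under each scaling run. Neither was at least 2-fold higher in both lines.

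Of the tropomyosins, which lie along the actin filament, TPM2 was far higher with tetracycline in both lines, and TPM1 was not. TPM2 was read by 2 probes. The brighter, A_23_P216501, read 99.6 ± 11 (-Tet) and 10143 ± 1014 (+Tet) for TR9_MeTA14, and 46.2 ± 6.1 and 6851 ± 685 for TR15_MeTA5. This was 81.0-fold and 100.4-fold. The other, A_33_P3270599, gave 147-fold and 110.2-fold, so both probes placed the treated arrays far above the untreated ones. Among the 12698 genes measured on all 4 arrays, 36 and 3 had a larger increase than the brighter TPM2 probe.

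TPM1 was readily measured with and without tetracycline. Its brightest probe, A_33_P3335966, read 1157 ± 116 and 710 ± 71.1 in TR9_MeTA14 and 666 ± 66.8 and 715 ± 71.8 in TR15_MeTA5. The change was 2.05-fold lower in TR9_MeTA14 and 1.38-fold lower in TR15_MeTA5. The other 2 probes gave 1.59-fold and 1.86-fold lower in TR9_MeTA14, so the brightest probe lay just past 2-fold and the others short of it.

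CNN1, smooth muscle calponin, which binds actin and restrains myosin, was not detected without tetracycline. A_23_P125233 read 3.6 and 3.34 without tetracycline, not well above background, and 123 ± 12.7 and 139 ± 14.5 with it. These are increases of at least 6.33-fold for TR9_MeTA14 and at least 6.10-fold for TR15_MeTA5. TAGLN, or transgelin, an actin-binding protein of smooth muscle, was by contrast measured on all arrays. Its brighter probe, A_23_P87011, read 394 ± 39.5 and 577 ± 57.7 in TR9_MeTA14 and 256 ± 25.8 and 525 ± 52.6 in TR15_MeTA5, which was 1.16-fold and 1.39-fold after scaling. The other probe, A_23_P87013, gave 1.00-fold and 1.34-fold. Since CNN1 was well above background on the treated arrays only, it could only be higher and is not set against TAGLN.

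**Figure D1:**
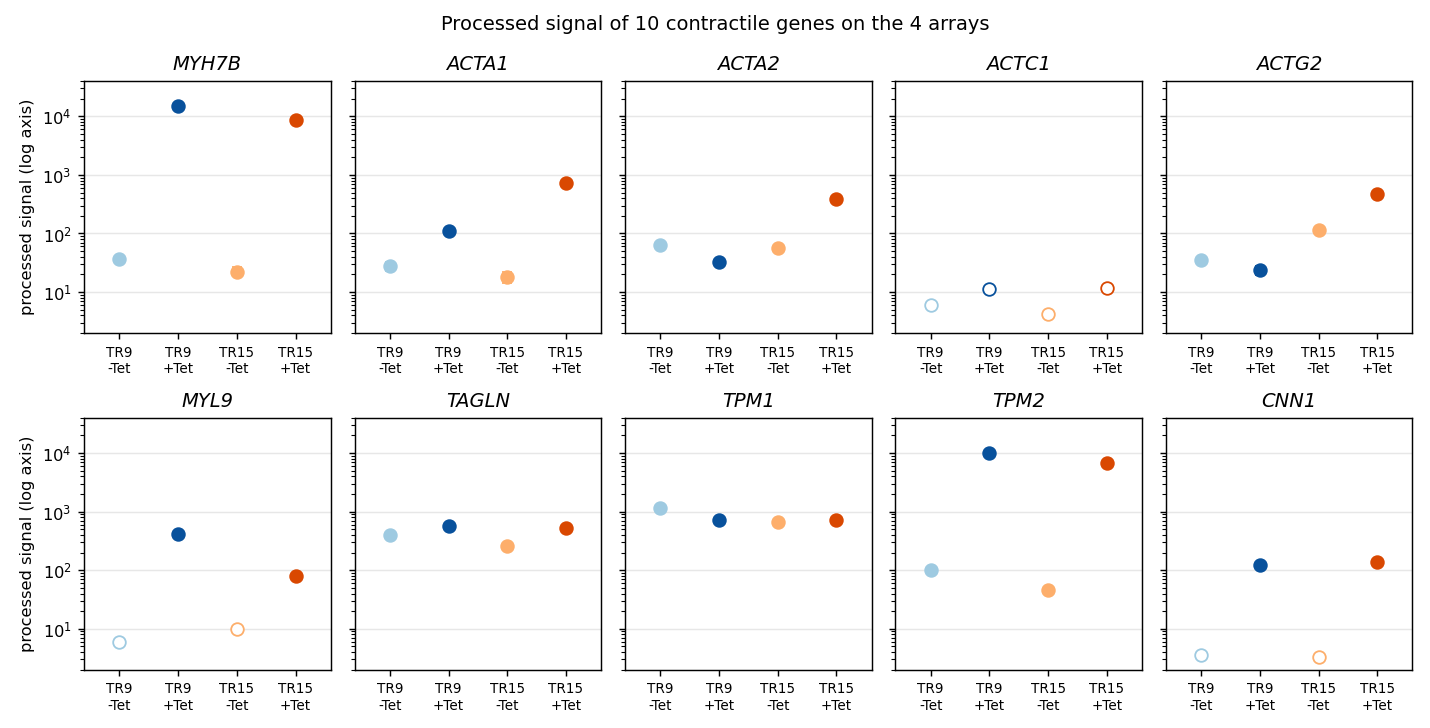
Processed signal (log axis, intensity units) of the brightest probe of each of the 10 genes on the 4 arrays, 1 array per condition; TR9 and TR15 stand for TR9_MeTA14 and TR15_MeTA5, bars show the error estimated by Feature Extraction, mostly smaller than the symbol, and open circles are not well above background. MYH7B and TPM2 reach between 6851 and 15194 in both treated lines, while ACTA2 and ACTG2 are highest in TR15_MeTA5 +Tet and ACTC1 stays at or below 11.8.

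Of the 10 genes, 9 had a fold change in both lines, and 5 of these 9 were at least 2-fold higher in both. The same was true of 8.21% of the 13979 named genes compared in both lines, a share given as background only, since the tetracycline changes had a part in choosing these genes. MYL9 and CNN1 entered only through their treated arrays and so had to be higher. Among the other 7, MYH7B, ACTA1 and TPM2 passed 2-fold upward in both lines. In TR9_MeTA14, 5 of the 9 were higher and 2, ACTA2 and TPM1, lower by the same cut-off, beside 16.8% and 15.1% of all named genes compared there. TPM1 was no longer past 2-fold under median scaling, spike-in scaling, normexp with quantile normalization or the mean over its probes, and ACTG2 became so under quantile normalization. In TR15_MeTA5, 7 of the 9 were higher and 0 lower, beside 9.8% and 2.22%. ACTA2 was past 2-fold in opposite directions in the lines, as were 0.143% of all genes. By the stricter cut-off of 10-fold in both lines, MYH7B and TPM2 remained of the 10 genes, beside 1.7% of all.

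**Figure D2:**
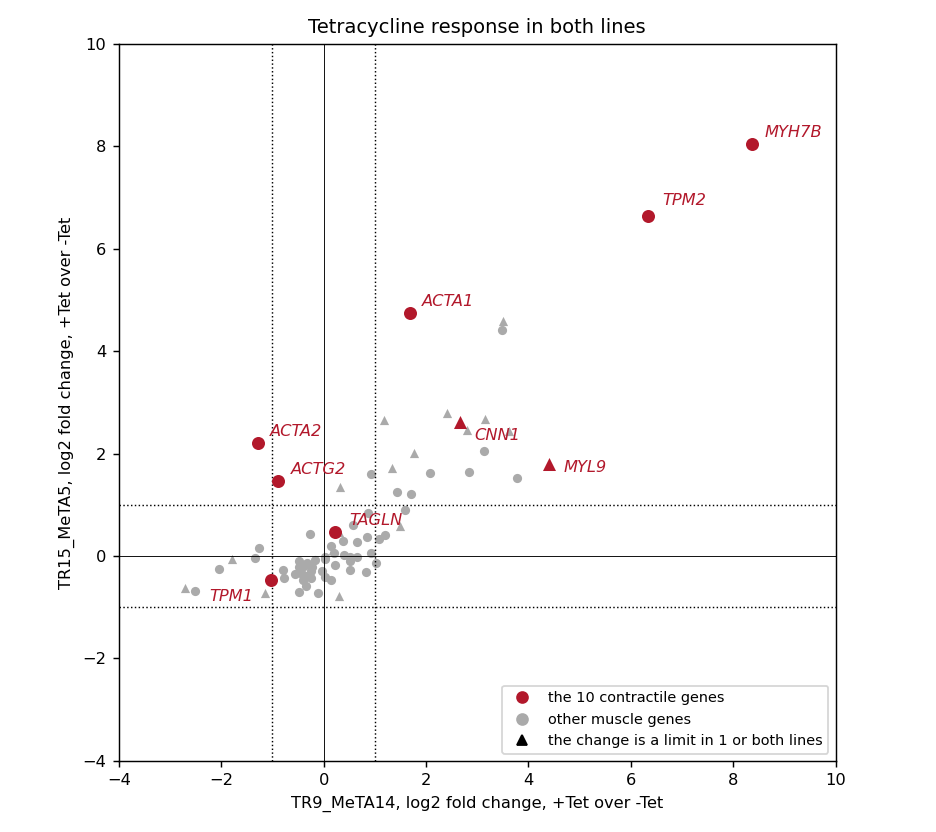
Log2 fold change with tetracycline in TR9_MeTA14 (x axis) against TR15_MeTA5 (y axis) for the 10 contractile genes (red) and other genes of the muscle list (gray), for genes with a change in both lines; dotted lines mark 2-fold and triangles mark changes that are limits. MYH7B (8.37 and 8.05) and TPM2 (6.34 and 6.65) lie far out in both lines, and ACTA2 (-1.29 and 2.20) and ACTG2 (-0.89 and 1.47) lie left of 0 and above it.

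The comparison of the lines before tetracycline was not used to choose the genes, although the same untreated arrays enter the tetracycline changes. Of the 7 genes measured on both untreated arrays, ACTG2 was 5.46-fold higher in TR15_MeTA5 than in TR9_MeTA14. The others differed by less than 2-fold, from 1.28-fold lower for TPM2 to 1.52-fold higher for ACTA2. Among all named genes, TR15_MeTA5 had 8.19% higher by 2-fold or more, and 5.18% lower. MYH7B was at nearly the same scaled level in both lines before tetracycline, with a log2 difference of 0.050 and an error of 0.32, and so was ACTA1, with 0.15 and 0.40. The larger ACTA1 change in TR15_MeTA5 thus started from nearly the same scaled level. Under spike-in scaling instead, MYH7B, TPM1 and TPM2 were at least 2-fold lower in untreated TR15_MeTA5, with log2 differences of -1.01, -1.10 and -1.41, and ACTA1 stood at -0.91.

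The 250 bases before the transcription start show how much CpG, the dinucleotide that carries DNA methylation, lies next to genes that moved and genes that did not. RefSeq (GRCh38.p14) windows were used here for 7 of the 10 genes, and those of MYH7B, MYL9 and TAGLN were not analysed here. The windows shown are those of genes higher in both lines (TPM2, ACTA1 and CNN1), of a gene that differed between the lines (ACTG2) and of one that was not higher (TPM1). Each CpG is in capitals, and sequences run 5′ to 3′ along the gene's own strand.
TPM2, chr9:35690057-35690306, minus strand: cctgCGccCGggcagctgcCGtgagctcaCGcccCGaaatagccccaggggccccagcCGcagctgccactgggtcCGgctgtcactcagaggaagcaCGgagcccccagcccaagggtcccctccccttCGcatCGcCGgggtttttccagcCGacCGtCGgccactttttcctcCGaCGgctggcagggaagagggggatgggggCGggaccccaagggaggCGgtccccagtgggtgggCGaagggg
ACTA1, chr1:229434095-229434344, minus strand: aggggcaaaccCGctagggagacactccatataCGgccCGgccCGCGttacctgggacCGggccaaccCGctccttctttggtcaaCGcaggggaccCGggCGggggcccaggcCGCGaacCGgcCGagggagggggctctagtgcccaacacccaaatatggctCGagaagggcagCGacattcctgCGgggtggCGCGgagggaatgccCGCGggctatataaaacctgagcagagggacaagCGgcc
CNN1, chr19:11538601-11538850, plus strand: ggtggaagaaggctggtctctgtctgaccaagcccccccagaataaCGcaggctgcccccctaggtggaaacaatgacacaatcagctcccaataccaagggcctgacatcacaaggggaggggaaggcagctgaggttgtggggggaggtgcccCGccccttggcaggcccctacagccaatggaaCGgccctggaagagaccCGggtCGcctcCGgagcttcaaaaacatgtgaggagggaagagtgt
ACTG2, chr2:73892758-73893007, plus strand: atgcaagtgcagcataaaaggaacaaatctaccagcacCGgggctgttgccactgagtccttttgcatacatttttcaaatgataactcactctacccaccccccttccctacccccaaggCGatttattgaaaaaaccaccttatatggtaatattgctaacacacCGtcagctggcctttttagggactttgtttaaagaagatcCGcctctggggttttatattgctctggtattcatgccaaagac
TPM1, chr15:63048239-63048488, plus strand: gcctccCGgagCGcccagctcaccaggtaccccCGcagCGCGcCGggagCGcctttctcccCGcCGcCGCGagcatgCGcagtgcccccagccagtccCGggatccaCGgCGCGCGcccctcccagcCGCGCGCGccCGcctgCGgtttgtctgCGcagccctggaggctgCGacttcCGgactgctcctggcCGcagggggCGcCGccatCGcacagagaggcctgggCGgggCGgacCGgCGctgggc

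The TPM2 window shown held 19 CpGs (25 in its other window), ACTA1 22, CNN1 6, ACTG2 4 and TPM1 34, where the median over 35116 windows of all genes was 11. TPM2 and ACTA1, higher in both lines, lay above this median. CNN1, which could only be higher because it entered through its treated arrays, lay below it, as did ACTG2. TPM1, whose CpG count was reached by 6.84% of windows, was not higher. A link between CpG count and the changes was not tested. ACTA2 had a window with 17 CpGs and, at its other start, one with 6, and ACTC1 had at most 7. The CArG box, searched on both strands as the motif of serum response factor, was found once in the ACTA1 window, once in an ACTC1 window and at 2 places in the ACTG2 window, and in 1.16% of all windows. A match is a description of these letters, and methylation of these windows was not analysed here. Because 3 of the 10 genes are left out, nothing is said of CpG content over the group.

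The profile of MYH7B over the 4 arrays, as scaled log2 signals less their mean, was nearest to that of HES2, TKTL1, FAM151A, C1QTNF12 and IER3 of the 12698 genes measured on all 4 arrays, at Euclidean distances of 1.34 to 1.69. TPM2 came next, at rank 6 and a distance of 1.75. Among the other 5 of the 10 genes that were measured on all 4 arrays, the closest was ACTA1 at rank 263, and MYL9, CNN1 and ACTC1 were not compared. The profile of ACTA1 was nearest to FEZ1, WTIP, PROC, CGB3 and OXTR, at distances of 0.712 to 1.30. Their larger log2 change in TR15_MeTA5 than in TR9_MeTA14 is part of the ACTA1 profile by which they were picked. ACTA2 ranked 220 and MYH7B 12624 by closeness to ACTA1. This distance depends on the size of the changes, so genes with very large increases in both lines, such as MYH7B and TPM2, lie near each other by construction. Nothing further is concluded from these ranks.

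The protein-coding genes next to the 10 genes on the chromosome mostly did not share their increases. Of 40 such neighbors, 2 on either side of each gene, 32 had a change in both lines and 2 passed 2-fold upward in both, close to the background share of 8.21% of all genes. These were C2CD4B near TPM1, which was itself not higher, and ACP5 near CNN1, both named after their values were seen. The neighbors of MYH7B (ACSS2, GSS, TRPC4AP and EDEM2) had log2 changes between -0.61 and 0.48. None of these 4 neighbors was 2-fold higher or lower in either line.

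To see how far other muscle genes took part, a list of 113 further genes was arranged by role, from sarcomeric myosins to muscle transcription factors, and 112 had a probe. Of 70 with a change in both lines, 15 were higher in both by 2-fold or more and 0 lower, beside 8.21% and 0.837% of all named genes. Of these 15, MYH7, MYH11, HAND1, RYR1 and PYGM were well above background on the treated arrays only and so could only be higher, and 7 were measured on all 4 arrays. In TR9_MeTA14 alone, 21 of 77 list genes were at least 2-fold higher and 7 lower, beside 16.8% and 15.1% of all named genes. In TR15_MeTA5, 19 of 76 were higher and 1 lower, beside 9.8% and 2.22%. The median log2 change of the list was 0.30 in TR9_MeTA14 and 0.00037 in TR15_MeTA5, beside -0.06 and -0.16 over all genes. Treating the lines as replicates, with the line itself as a blocking factor and 1 residual degree of freedom, limma found 5 of 74 tested list genes higher and 0 lower at an adjusted p below 0.05, where 2.52% of all 22819 probes tested were higher and 0.00876% lower. At an unadjusted p below 0.05, limma had 20 higher and 2 lower, beside 11.5% and 7.83% of all probes tested. The 5 were MYH11, TNNC2, CNN3, RYR1 and ATP2A1. MYH11 and RYR1 entered the test through their treated arrays only, so their direction was fixed and their calls support nothing. With probes required to be measured on all 4 arrays, TNNC2 was the 1 list gene that limma called.

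Among the myosin heavy chains, MYH11, the defining heavy chain of smooth muscle, was not well above background without tetracycline, at 5.0 and 4.93, and read 173 and 145 with it. These are increases of at least 8.88-fold and at least 6.37-fold. MYH7, the slow and cardiac heavy chain, had changes of at least 11.3-fold and at least 24.2-fold. Of the 9 sarcomeric heavy chains on the list, 2 had a change in both lines, and MYH7 was the one past 2-fold. Both MYH7 and MYH11 were well above background on the treated arrays only and so could only be higher. Nothing is concluded from them about heavy chains beside MYH7B.

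Among thin filament genes, TNNC2, the calcium sensor of fast skeletal muscle, went from 94.2 to 1331 and from 47.1 to 1482. It was 11.2-fold and 21.3-fold higher (adjusted p = 0.0241, limma). Of 9 tropomyosin and troponin genes of the list with a change in both lines, TNNC2 alone was at least 2-fold higher in both. Over all named genes, the share higher in both lines was 8.21%. In TR9_MeTA14, TNNT1 was 4.10-fold lower and TNNT2 at least 3.46-fold lower. Of the light chain genes, MYL7, the atrial light chain, was 4.20-fold and 3.06-fold higher (adjusted p = 0.0903, limma). In the scaffold of the sarcomere, 3 of 15 genes with a change in both lines were at least 2-fold higher, namely MYBPC3 of the thick filament and TCAP and MYOZ3 of the Z disc. None of these 3 passed the test (adjusted p between 0.103 and 0.146, limma). MYBPC1 and CAPN3 of the scaffold were lower in TR9_MeTA14, by at least 6.51-fold and by 2.54-fold.

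Of the calponin and smooth muscle cytoskeleton genes, 3 of 8 passed 2-fold upward in both lines, beside 8.21% of all named genes. CALD1 of the same role went the other way, 5.69-fold lower in TR9_MeTA14 and 1.61-fold lower in TR15_MeTA5. CNN3, a calponin of non-muscle cells, was 12.3-fold higher in TR9_MeTA14 and at least 5.46-fold higher in TR15_MeTA5 (adjusted p = 0.0257, limma). CNN2, another calponin found outside muscle, was 7.12-fold and 3.1-fold higher (adjusted p = 0.0835, limma), and the intermediate filament gene SYNM 13.7-fold and 2.86-fold higher (adjusted p = 0.156, limma). Of the calponins, only CNN2 was measured on all 4 arrays. CNN3 in TR15_MeTA5 and CNN1 in both lines were not well above background without tetracycline, and so could only be higher there. The calponins are therefore not set against TAGLN as a group.

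RYR1, the calcium release channel of skeletal muscle, was at background on the untreated arrays and read 136 and 125 on the treated ones, at least 7.01-fold and at least 5.48-fold. ATP2A1, the calcium pump of fast muscle, rose 5.29-fold and at least 6.89-fold by its brightest probe (adjusted p = 0.0477, limma), but one of its other 2 probes had a log2 change of -0.08 in TR15_MeTA5. PYGM, muscle glycogen phosphorylase, was higher by 3.41-fold or more and 4.06-fold or more. Of 8 genes of calcium handling and metabolism with a change in both lines, these 3 were at least 2-fold higher in both, beside 8.21% of all named genes. RYR1 and PYGM were well above background on the treated arrays only and so could only be higher, as was ATP2A1 in TR15_MeTA5. In the same role, ENO3 was 2.38-fold lower in TR9_MeTA14 and 1.11-fold higher in TR15_MeTA5, and MB was 1.39-fold and 1.62-fold lower.

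Among 13 muscle transcription factors with a change in both lines, HAND1 was higher by 2.28-fold or more and 6.31-fold or more. MYOD1, which drives skeletal muscle differentiation and was singled out after its values were seen, was the one list gene at least 2-fold lower in TR15_MeTA5, from 239 to 26.3, and was not well above background in TR9_MeTA14. MYOCD, which drives smooth muscle genes with serum response factor, was not well above background on any array. No higher signal of MYOD1 or MYOCD with tetracycline was measured in either line.

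**Figure D3:**
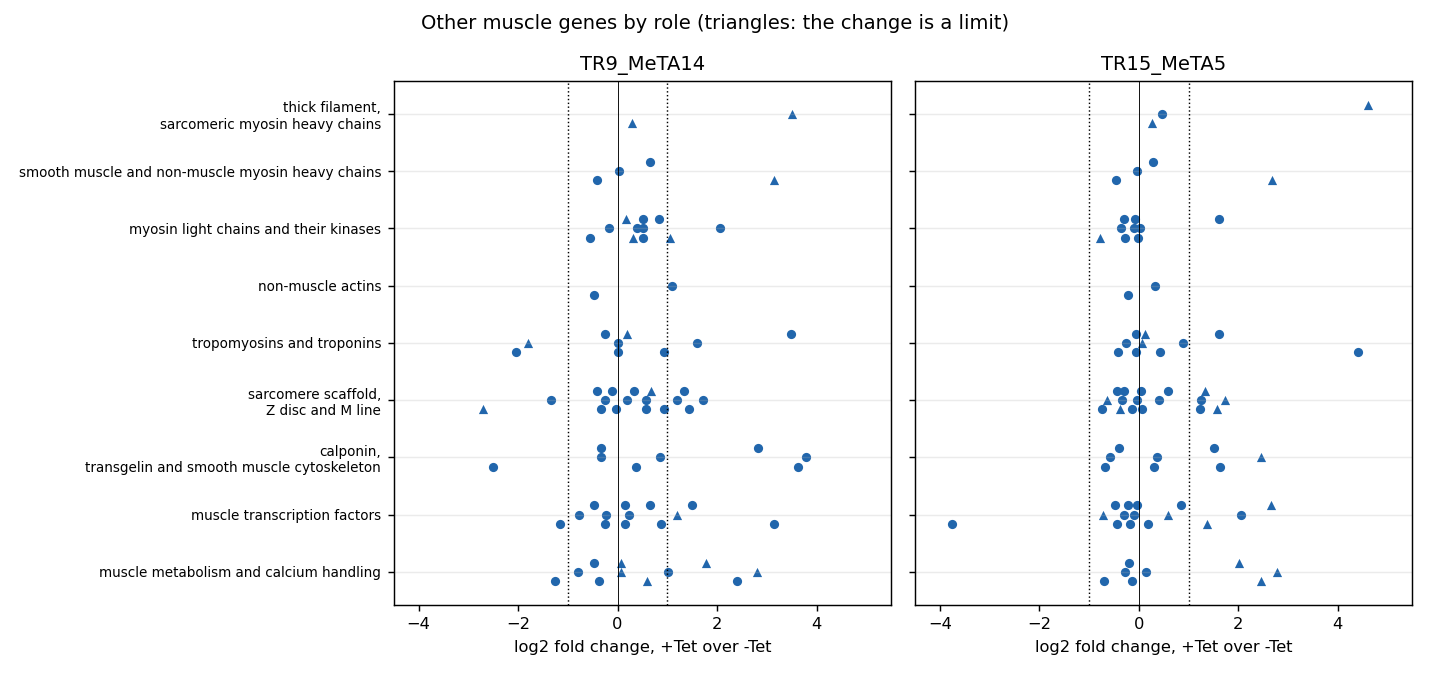
Log2 fold change with tetracycline (x axis) of the other muscle genes by role (rows) in TR9_MeTA14 (left) and TR15_MeTA5 (right), 1 point per gene by its brightest probe, dotted lines mark 2-fold and triangles mark limits. In each role except the non-muscle actins, 1 to 3 genes lie at least 2-fold to the right in both lines.

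Markers of the cell type and of other cells were read beside these results. All 9 LNCaP markers, KLK3 among them, were well above background on all 4 arrays, and their summed signal was 309647 and 140275 in TR9_MeTA14 and 243830 and 228236 in TR15_MeTA5, without and with tetracycline. KLK3 had log2 changes of -1.95 and -0.70, and the part of this shift in the values of the contractile genes was not tested. Of 7 fibroblast and stromal markers, 1 or 2 were well above background per array, with summed signals between 72.9 and 574, and COL1A2, COL3A1, DCN, LUM and PDGFRB were on none. Of 7 skeletal muscle markers, 2 to 4 per array were well above background, summed between 613 and 1325, and of 5 smooth muscle markers 2 or 3, summed between 612 and 1687. TTN, MYH2, MYOCD and LMOD1 were not well above background anywhere. Endothelial markers summed to between 331 and 469, and leukocyte markers to between 191 and 1025. Of the leukocyte markers, CD14 was at least 2-fold higher in both lines and the others were not. PTPRC had log2 changes of 0.25 in TR9_MeTA14 and -0.62 in TR15_MeTA5. CD3E had 0.41 in TR9_MeTA14 and fell to background in TR15_MeTA5, a log2 change of -1.35 or lower. The muscle markers at least 2-fold higher in both lines were MYH7 and MYH11, given above among the myosins.

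**Figure D4:**
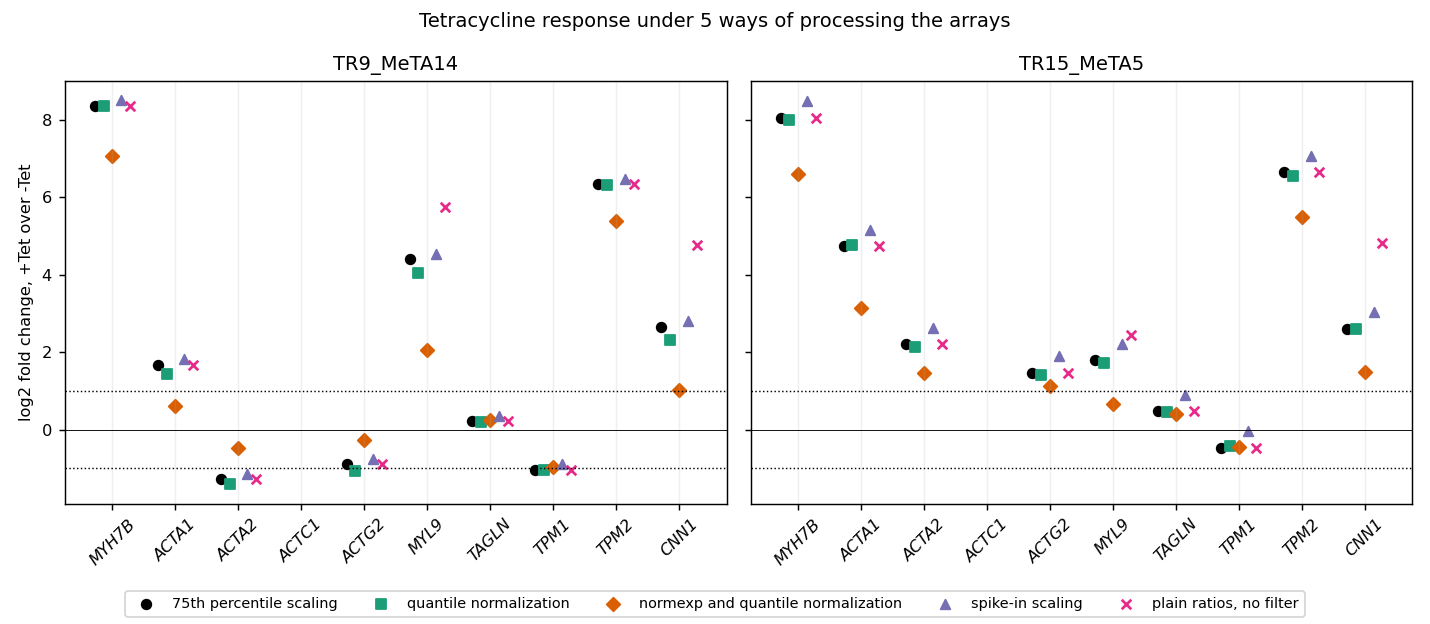
Log2 fold change with tetracycline (y axis) of the 10 genes in TR9_MeTA14 (left) and TR15_MeTA5 (right) under 5 ways of processing the arrays; dotted lines mark 2-fold, and ACTC1 has no value. MYH7B stays between 6.59 and 8.51 and TPM2 between 5.39 and 7.08, while ACTA1 in TR9_MeTA14 and MYL9 in TR15_MeTA5 drop under 2-fold with normexp (offset 50) followed by quantile normalization.

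Normexp background correction with an offset of 50, followed by quantile normalization, gave log2 changes of 0.61 for ACTA1 in TR9_MeTA14 and at least 0.67 for MYL9 in TR15_MeTA5, so MYH7B, TPM2 and CNN1 were then the genes of the 10 at least 2-fold higher in both lines. ACTA2 in TR9_MeTA14 was then at -0.48, no longer past 2-fold, and kept its sign. MYH7B and TPM2 stayed far past 10-fold in both lines in each setting shown in the plot.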

How the data were processed

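Total RNA of 4 cultures, 1 per condition, was measured on arrays of one slide. The authors deposited spot intensity values made with Agilent Feature Extraction, named as version 10.7.3.1 in the file header and 9.5.1 in the submitters' processing notes, background-subtracted and not scaled between arrays. The deposited series table held the same intensity values.

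From these, log2 signals of a probe's spots were averaged without 255 to 344 outlier spots per array, and each array's 75th percentile was subtracted. Probes were named through RefSeq accessions (GRCh38.p14), which paired 74.5% with a gene. The array was annotated on another build, so coordinates are given only for promoter windows, on GRCh38.p14, and chromosome order only for neighbors. A gene stands for its brightest probe. The rule for named genes took the 10 genes, list genes at least 2-fold changed in both lines, the 5 nearest profiles, ACTB and ACTG1. Neighbors, cell type markers and MYOD1 are named besides, and some genes that meet this rule are not reported here. The 10 genes and all lists were chosen with earlier results of these data known.

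Over both lines, limma 3.58.1 (R 4.3.3) was fitted to the 22819 probes that were well above background on 2 or more arrays, blocking on cell line, with a trended prior and p-values adjusted by Benjamini-Hochberg. Tested on simulated data for this fit, with 200 changed probes, it found 85% of those changed 16-fold, 0% of those changed 4-fold and 3 unchanged probes. Tables were made with Python 3.11.15, numpy 2.4.6 and pandas 2.3.3 and plots with matplotlib 3.10.9. The alternatives were other scalings, normexp with quantile normalization, other filters, probe rules and fold cut-offs.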

Additional observations from a re-analysis of the deposited data

Results flagged for a closer look

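ACTA2, the vascular smooth muscle actin, had opposite changes in the lines, with a log2 change of -1.29 in TR9_MeTA14 and 2.20 in TR15_MeTA5. The difference was not tested, since each line has 1 array with tetracycline and 1 without.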

How the results depend on the processing

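With 1 array per condition no replicate could be left out. No paired analysis was possible because the groups share only replicate number 1, so no block beyond the cell line already in the limma fit could be made. With the settings used above, 5 of the 10 genes passed 2-fold upward in both lines and 1 differed by 2-fold between untreated lines. Quantile normalization gave 2 list genes lower in TR15_MeTA5 in place of 1. Normexp with an offset of 50, then quantile normalization, gave 3 of the 10 genes higher in both lines, and of the list 12 higher and 3 lower in TR9_MeTA14 in place of 21 and 7, 10 higher in TR15_MeTA5 in place of 19, 8 higher in both in place of 15, and 3 by limma in place of 5. Spike-in scaling gave 4 of the 10 genes apart between untreated lines and 12 list genes by limma, where the count over all probes went from 576 to 1298. It moved the median log2 change of the probes measured on all 4 arrays to -0.01 and 0.25, and the share of higher among changed genes in TR15_MeTA5 from 81.5% to 95.6%, where normexp with quantile normalization gave 92.6%. With probes kept only if well above background on each of the 4 arrays, 7 of the 10 genes had a change. Of these 7, 3 were higher in TR9_MeTA14 and 3 in both lines. Of the list, 11 were higher and 4 lower in TR9_MeTA14, beside 1740 and 1956 of the 12698 genes measured on all 4 arrays. In TR15_MeTA5, 8 list genes were higher and 0 lower, beside 809 and 180 of all. In both lines 7 list genes were higher, and limma called 1, TNNC2. The share of all genes higher in both lines under this filter is not given here. Plain ratios gave 2 of the 10 genes apart between untreated lines and 8 list genes lower in TR15_MeTA5, and limma without a filter 11 higher and 1 lower. A 3-fold cut-off gave 13 list genes higher and 4 lower in TR9_MeTA14. A 1.5-fold cut-off gave 2 of the 10 genes apart between untreated lines and 8 list genes lower in TR15_MeTA5. The causes were not tested, apart from fewer genes compared under the stricter filter.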
